A study of Gallus gallus with 12 samples.

Results

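The comparison set live, hand-dissected node cells of the chick embryo (Gallus gallus) against the tissue beside them, embryo by embryo. The node, or Organiser, is the signalling centre at the posterior end of the axis, and its cells contribute to the notochord and to the midline of the neural tube. It is known for TBXT, for Hedgehog and Nodal pathway genes and for secreted antagonists of BMP. The neighbouring ectoderm and mesoderm form the neural plate and the presomitic mesoderm, from which the spinal cord and the somites arise.

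The members were 6 of the 12 libraries of the study: 3 embryos dissected by hand while live gave a node library and a lateral library apiece. Per the labels, embryo 1 had 8 somites and embryos 2 and 3 had 9 somites. Cells of the Organiser were labelled as gastrulation ended, and those still fluorescent and still in the Organiser at dissection made up the node sample, so all 3 embryos had been labelled and allowed to develop on. The lateral sample held adjacent neural plate and emerging presomitic mesoderm. No strain, genotype or drug treatment was given. The other 6 libraries came from fixed embryos cut by laser capture microdissection (LCM) and enter here only for a look-up.

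Genes were kept where the mean count over the 6 libraries was at least 10, which left 10034 of 13106 genes. Of these, 6509 had a count in all 6 libraries and 9477 had a unique gene name. The mean reached 10 in both tissues for 8859 genes, in the node libraries alone for 529 and in the lateral libraries alone for 646. Genes of the last 2 kinds passed the filter through the side where they were high, so they were bound to differ to some degree. Total counts were 26850139, 19885596 and 18568123 in the node libraries of embryos 1 to 3 and 30997461, 23446535 and 22526506 in the lateral libraries. Embryo 1 thus had the deepest pair, with 10621 and 11497 genes detected in node and lateral, against 8378 to 8983 in the libraries of embryos 2 and 3. The libraries were amplified from 1 to 7 ng of RNA. W-linked genes had 11229 and 12520 counts in the node and lateral library of embryo 1 and 35 to 132 counts in the other 4 libraries, so both libraries of embryo 1 stood apart from the rest in the same way.

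Node minus lateral differences were taken within each embryo as log2 CPM (library-size-scaled counts), scaled by TMM with a prior count of 2. A gene is said to be carried by an embryo where the mean of the 3 differences was at least 1 in size and the mean of the other 2 embryos was under 1 in that direction. Fitted log2 fold changes come from edgeR's quasi-likelihood test with embryo as a block. Their standard errors are approximate: each is the size of the fold change divided by the square root of the test's F statistic. In bulk samples such as these, fewer cells of a type and less RNA per cell cannot be told apart.

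Defining markers were first set against the labels. The node genes TBXT, CHRD, SHH and CFC1 were higher by at least 1 log2 CPM in the node library of every embryo. GNOT1 and NOG were above 1 in embryos 1 and 2 and at 0.30 and 0.00 in embryo 3. For the neural plate, SOX2 had 56, 1 and 85 counts in the node and 41, 2 and 0 beside it, while FABP7 had 7377, 5496 and 30382 against 7891, 33099 and 63392. FABP7, which binds fatty acids in neural progenitor cells, was thus level in embryo 1 and higher on the lateral side in embryos 2 and 3. The neural plate gene CDH2 had 4458, 4427 and 2161 against 2648, 1142 and 1468. Its differences of 0.87, 2.05 and 0.71 put it on the node side in every embryo. PAX-7 had 0 node counts and 68, 1 and 0 lateral counts. TBX6, a T-box factor of presomitic mesoderm, had 350, 1535 and 974 counts in the node and 1629, 909 and 1087 beside it. The presomitic marker MSGN1 had 874, 571 and 133 against 651, 387 and 671. Both mesoderm markers were therefore present in all node libraries too, and neither kept a direction across embryos.

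Some markers of tissues that the labels do not name were sparse outside embryo 1, and others were not. EPCAM, an epithelial adhesion molecule listed here for surface ectoderm, had 3127, 2118 and 3186 counts in the node and 2643, 4847 and 4531 beside it, so it was counted in every library. CDH1, the epithelial cadherin, had 61 node counts and 2 lateral counts in embryo 1 and 0 in the other 4 libraries. TFAP2A of surface ectoderm had 6 and 53 counts in embryo 1, and at most 1 elsewhere. GATA4, a factor of endoderm and heart, had 337 and 668 counts in embryo 1, and at most 1 elsewhere. GATA3, MESP2, HHEX and NKX2-5 were at 0 in all 6 libraries. In a single library a true level of 3 counts could still give 0, on counting error alone, and 0 in all 6 together allows less. TTR, the thyroxine carrier transthyretin that is made by endoderm, had 2004, 489 and 340 counts in the node and 4485, 76 and 114 beside it. It was higher on the lateral side in embryo 1 and on the node side in embryos 2 and 3. Summed over each marker list, CPM ran from 472 to 1108 in the node libraries and from 49.7 to 249 in the lateral libraries for the 6 node genes. These sums did not overlap, but TBXT alone gave 281, 798 and 402 CPM of the node sums of 472, 1108 and 574. By themselves GNOT1 and NOG did overlap, GNOT1 with 77.3 CPM in the node of embryo 2 and 81.4 beside the node of embryo 3. The 6 genes were listed as known node genes. For the 5 surface ectoderm genes, of which 4 had a count, the ranges were 106 to 170 and 84.7 to 224. The 4 endoderm genes in the table, 3 with a count, gave 18.9 to 82.8 and 4.07 to 176, with both highest values in embryo 1. Heart genes (2 of 3 with a count) summed to at most 2.12 in the node and 7.68 beside it, and blood and endothelium genes (2 of 2) to at most 5.53 and 7.64. The neural plate list, with 4 genes in the table, gave 401 to 1745 and 331 to 3114. FABP7 alone gave 249, 273 and 1630 CPM in the node and 245, 1530 and 3040 beside it. The presomitic list, 3 of 4 with a count, gave 57.1 to 107 and 67.3 to 87. The part of other cell types in the results below was not tested.

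No gene passed an adjusted p of 0.05, so the background share called was 0%. The smallest adjusted p was 0.704 over 10034 genes. Genes with an unadjusted p under 0.05 numbered 262 (2.61%), 159 of them higher and 103 of them lower in the node. The common biological coefficient of variation was 103%, and 2 residual degrees of freedom were left. DESeq2 with the same block called 197 of the 8477 genes to which it gave an adjusted p (2.32%), 137 of them higher. Of these, 123 had a count of 0 in at least 1 library, while 6509 of all 10034 genes had a count in all 6. For 48 of the 197 the sign was not the same in all 3 embryos. Of all 10034 genes, 1100 were positive and 1146 negative in all 3. A difference of at least 1 in the same direction in all 3 was held by 105 of the 197. Over all 10034 genes this held for 224 higher and 154 lower genes. What follows therefore gives values in each embryo, with counts beside their background, and not calls.

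Across all genes 1100 (11%) were positive in all 3 embryos and 1146 (11.4%) were negative in all 3. At a difference of 1 log2 CPM or more in every embryo, 224 genes (2.23%) were higher in the node and 154 (1.53%) were lower. Requiring this of only embryos 2 and 3 gave 873 higher and 633 lower genes, of only embryos 1 and 3 gave 522 and 518, and of only embryos 1 and 2 gave 567 and 599. The mean count reached 10 in both tissues for 172 of the 224 higher genes and for 99 of the 154 lower genes.

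**Figure D1:**
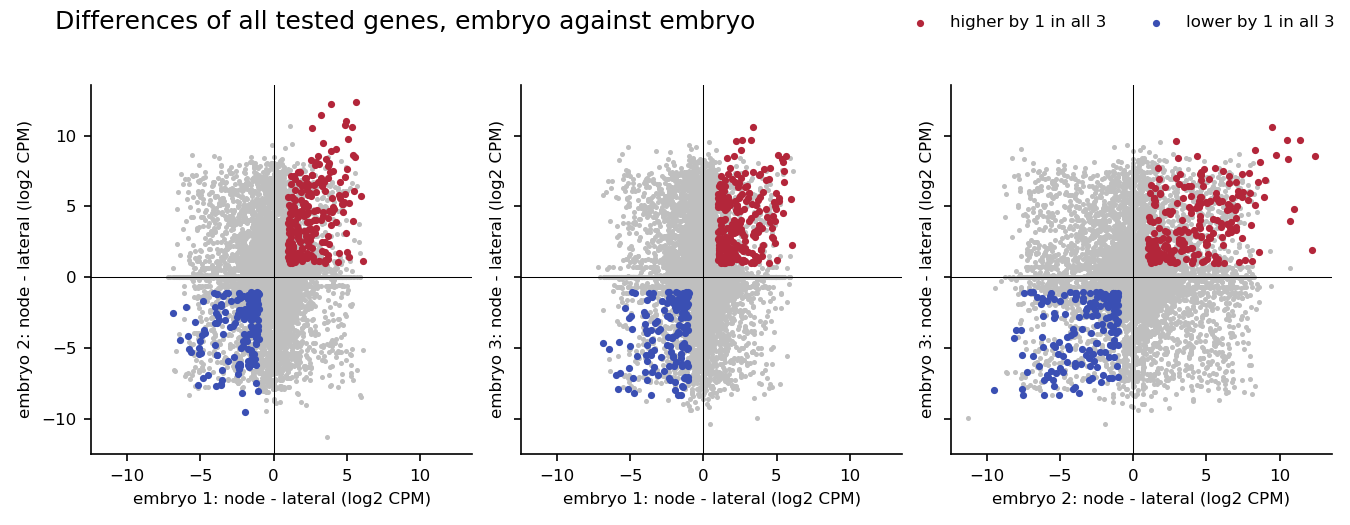
Node minus lateral difference (log2 CPM) of each of the 10034 tested genes in 1 embryo against another, for the 3 pairs of embryos; red points are the 224 genes higher by at least 1 in all 3 embryos and blue points the 154 lower genes. Grey points lie in every sign combination of each panel, and the spread is narrower in embryo 1 than in embryos 2 and 3.

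The genes most clearly on the node side in every embryo were a mixed group of enzymes, channels and secreted proteins. Ranked by their smallest difference, PIK3C2G, KCNJ15, MMP2, RIPPLY3, CA10, WIF1 and MYO3A led, each with a difference above 5 in all 3 embryos. MYO3A, an unconventional myosin known from the stereocilia of hair cells, had 14138, 3075 and 1711 counts in the node libraries of embryos 1 to 3 and 439, 2 and 3 in the lateral libraries. Its differences were 5.12, 9.76 and 8.65, and its fitted log2 fold change of 8.02 ± 1.19 (SE, n = 3 embryos) had the smallest p of all genes, with an adjusted p of 0.704. Every node library lay above every lateral library, and embryo 2 gave the largest difference.

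PIK3C2G, a class II phosphoinositide 3-kinase, had 1741, 9132 and 577 counts in the node and 35, 0 and 0 beside it. The differences were 5.65, 12.40 and 8.53, and the fitted value was 9.44 ± 1.80. All node libraries again exceeded all lateral libraries, and embryo 2 led. CA10, a carbonic anhydrase relative without enzyme activity, had 1443, 2635 and 1094 against 36, 0 and 2, with a fitted value of 8.61 ± 1.65 and the largest difference, 10.61, in embryo 2.

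MMP2, the gelatinase that cleaves basement membrane collagen, had 851, 2719 and 278 node counts and 18, 40 and 0 lateral counts. Its differences of 5.48, 6.12 and 7.48 lay close together, and the fitted value was 6.71 ± 1.17. WIF1, a secreted protein that binds Wnt ligands, was the most even of the 15 leading genes. It had 724, 653 and 101 counts against 19, 17 and 1, which gave differences of 5.18, 5.22 and 5.38 and a fitted value of 5.71 ± 1.41. No single embryo drove either gene.

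KCNJ15 is an inwardly rectifying potassium channel, with 754, 612 and 163 counts in the node libraries against 15, 0 and 0 in the lateral ones. RIPPLY3, a repressor that acts with T-box factors, had 788, 674 and 433 against 17, 0 and 0. The 2 genes shared a pattern of low lateral counts in embryo 1 and none in embryos 2 and 3, and their fitted values were 8.58 ± 2.14 and 8.95 ± 2.11. Both had a lateral mean under 10 and passed the filter through the node alone, so they were bound to differ to some degree. CAPSL, a calcium-binding protein, and PTGDS, which makes prostaglandin D2, differed from these in that embryo 2 alone held the extreme. CAPSL had 2494, 13033 and 3113 node counts against 84, 5 and 124, with differences of 4.97 in embryo 1, 11 in embryo 2 and 4.79 in embryo 3. PTGDS had 12489, 6027 and 1902 against 449, 2 and 135, with differences of 4.91, 10.73 and 3.96. Without embryo 2 the mean differences of CAPSL and PTGDS were 4.88 and 4.43, both above 1.

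Embryo 3 gave the largest difference for another group. LAPTM4B, a lysosomal membrane protein, had 3580, 1851 and 2476 node counts against 374, 1 and 0, with differences of 3.37, 9.46 and 10.63. ABCC3, a transporter that exports organic anions, had 1604, 886 and 493 against 98, 32 and 1, with differences of 4.11, 4.81 and 7.65. DCDC2, a doublecortin family protein that binds microtubules, had 183, 436 and 695 against 6, 8 and 2, with differences of 4.53, 5.58 and 7.69. In each of these 3 genes the lateral library of embryo 3 held 0 to 2 counts, so a count of a few reads sets the size of the largest difference. DCDC2 also had a lateral mean under 10 and passed the filter through the node alone, so it was bound to differ to some degree. The other 3 of the 15 genes were RUNX1T1, PLA2G10L and HEP21, led by embryo 2 with differences of 8.93, 8.08 and 8.33, and with 3.60 to 5.69 in embryos 1 and 3.

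**Figure D2:**
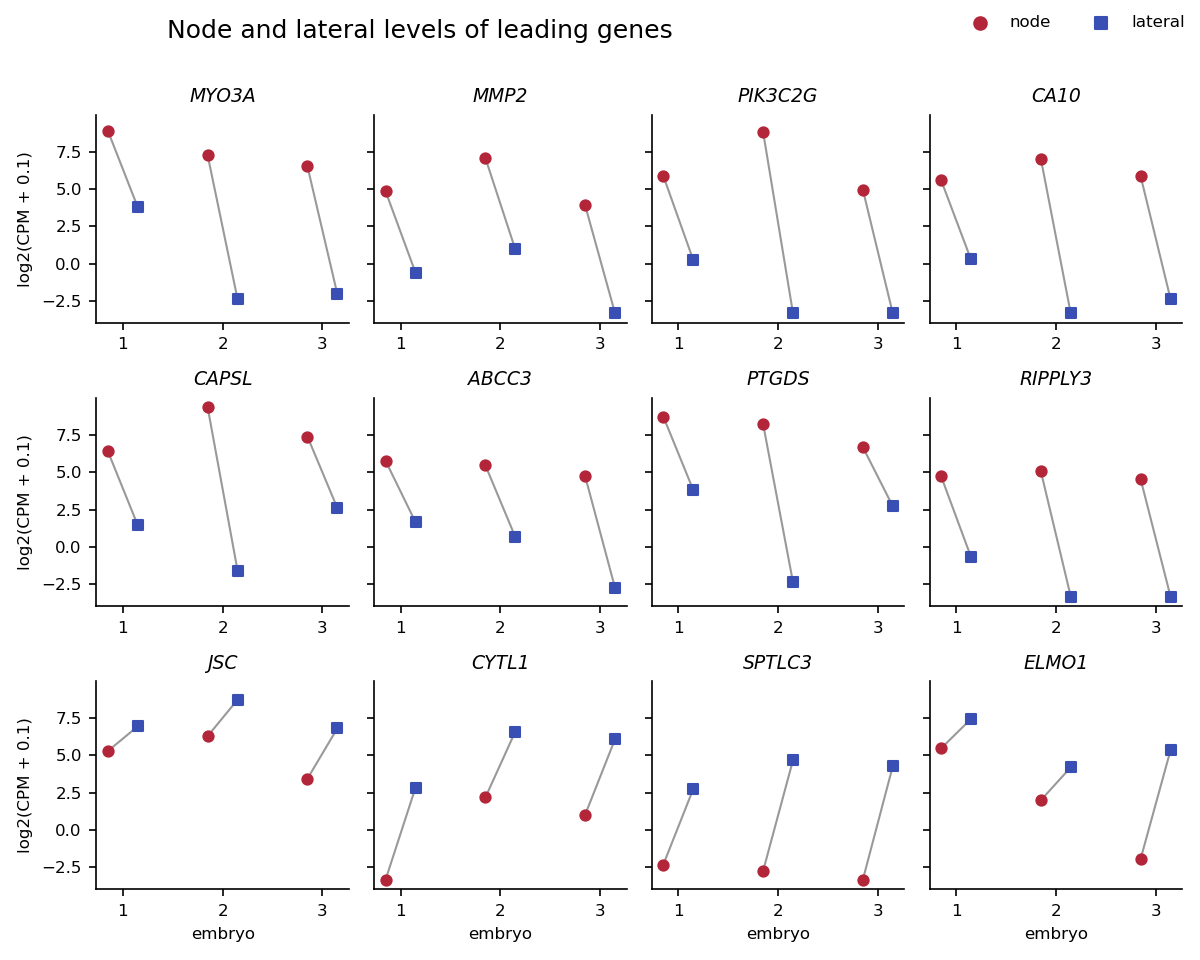
Levels, as log2(CPM + 0.1), of 8 of the 15 leading node-side genes (upper rows) and 4 of the 15 leading lateral-side genes (bottom row), chosen by smallest p, in the node (red circles) and lateral (blue squares) library of each embryo. A grey line joins the libraries of an embryo; every line slopes the same way within a gene, and the lowest points are libraries with 0 to 3 counts.

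Over the whole set of 224 node-side genes, embryo 2 gave the largest difference for 112, embryo 3 for 90 and embryo 1 for 22. Among all tested genes with a mean difference of at least 1 toward the node, these embryos led for 892, 967 and 204. Embryo 1 thus led least often in the background too. The median difference was 2.15 in embryo 1, 3.97 in embryo 2 and 3.49 in embryo 3. Lateral counts were 0 for 8 of the genes in embryo 1, for 68 in embryo 2 and for 77 in embryo 3. At least 20 counts in every node library were held by 182 of the 224 genes. The differences of this set were thus larger in embryos 2 and 3, whose lateral libraries more often held no count.

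On the lateral side the set was smaller and less deeply counted: 43 of the 154 genes had an average log2 CPM of 3 or more, against 104 of the 224 node-side genes. JSC, which the table describes as the chemokine CXCL14, had 1154, 1570 and 200 counts in the node and 3969, 9143 and 2331 beside it. The differences were -1.66, -2.44 and -3.38, and the fitted log2 fold change was -2.49 ± 0.43 with an adjusted p of 0.704. Its node and lateral counts did not overlap between the groups, and embryo 3 led. CYTL1, a secreted cytokine-like protein, had 0, 89 and 36 node counts against 228, 2080 and 1416, with differences of -6.42, -4.42 and -5.08 and a fitted value of -5.67 ± 1.19. Here embryo 1 led, through a node count of 0 in a library of 26850139 counts.

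GRHL3, a grainyhead factor of surface ectoderm known in mouse for neural tube closure, had 42, 0 and 0 node counts against 184, 1288 and 427, with differences of -1.95, -9.48 and -7.94. SPTLC3, a subunit of the enzyme that starts sphingolipid synthesis, had 3, 1 and 0 node counts against 213, 553 and 401, with differences of -5.18, -7.59 and -7.85. Both were near absent from the node libraries of embryos 2 and 3. SPTLC3 had a node mean under 10 and passed the filter through the lateral side alone, so it was bound to differ to some degree. APOD, a lipocalin that carries small lipids, had 289, 9 and 140 node counts against 1567, 851 and 425, and embryo 2 led with -6.22 beside -2.31 and -1.44.

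Some lateral-side genes were even across embryos. ZBTB24, a zinc finger factor, had 131, 49 and 116 node counts against 553, 369 and 561, with differences of -1.94, -2.77 and -2.10. UHRF1, which guides maintenance of DNA methylation, had 45, 64 and 57 against 185, 430 and 324, with differences of -1.86, -2.62 and -2.32. MT1, a metallothionein that binds metal ions, had 310, 80 and 204 against 1156, 424 and 920, with differences of -1.77, -2.28 and -2.01. For these 3 genes the differences lay within 1 log2 unit of each other, and fitted values ran from -2.30 to -2.03. TNKS2, a tankyrase, was similar at -2.07, -2.68 and -1.71.

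Other lateral-side genes were less even without being carried by 1 embryo. SMARCA2, an ATPase of the SWI/SNF chromatin remodeller, was led by embryo 2 at -8.16, beside -2.13 and -4.28. Embryo 3 led for ELMO1, an activator of Rac in cell migration, at -7.37 beside -1.97 and -2.22. It also led for BBOX1, an enzyme of carnitine synthesis, at -7.12 beside -2.32 and -1.43, and for GMIP at -7.74 beside -1.38 and -3.99. The fructose transporter SLC2A5, at -1.50, -6.11 and -8.32, and WTIP, at -1.46, -3.57 and -6.10, were large in both embryos 2 and 3. Over all 154 genes, embryo 3 gave the largest difference for 71, embryo 2 for 62 and embryo 1 for 21, with medians of -3.35, -3.02 and -1.90. Among all tested genes with a mean of at least 1 in size toward the lateral side, these embryos led for 703, 763 and 383.

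Of 3912 genes whose mean difference was at least 1 in size, 2665 (68.1%) were carried by 1 embryo and 1247 were not. The latter need not share a direction: TBX18, a T-box factor, is among them with differences of -2.57, 7.15 and 7.92. Embryo 1 carried 462, embryo 2 carried 1099 and embryo 3 carried 1104. Node-side genes made up 151, 570 and 650 of these, and lateral-side genes 311, 529 and 454. Among the 3048 genes with an average log2 CPM of 5 or more, 247 of 347 such genes (71.2%) were carried, by embryos 1 to 3 in 16, 117 and 114 cases. The carried share was thus similar among the better counted genes.

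In embryo 1 the well-counted genes that it carried differed by graded amounts. TDH, the mitochondrial threonine dehydrogenase, had 2510, 2755 and 789 counts in the node and 115, 1388 and 2819 beside it, with differences of 4.53, 1.09 and -1.68. SEMA3D, a secreted semaphorin that guides axons and migrating cells, had 3930, 3132 and 1761 against 647, 1370 and 2336, with 2.72, 1.29 and -0.25. GNOT1, a homeobox gene of the notochord, had differences of 3.00, 1.60 and 0.30. In these 3 genes the difference was largest in embryo 1, as their choice required, and smallest, or reversed, in embryo 3. PDCD4, an inhibitor of translation, had 2.54 in embryo 1 and 0.71 and 0.66 in the others.

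Toward the lateral side embryo 1 carried GPD1L, ESPL1, MRPS21 and GARNL3. ESPL1, the protease separase that opens sister chromatids, had 331, 3051 and 3322 node counts against 3917, 4923 and 2716, with differences of -3.44, -0.59 and 0.45. MRPS21, of the mitochondrial ribosome, had 95, 4251 and 1755 against 1071, 7404 and 1483, with -3.34, -0.70 and 0.40. For both genes the node library of embryo 1 was far below all other libraries, not only below its lateral partner.

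The 16 genes named for embryos 2 and 3, which lay furthest from the other embryos, each had 0 to 6 counts in 1 library of the embryo that carried them. SEMA3C, another secreted semaphorin, had 1016, 2786 and 751 node counts against 504, 0 and 538, with differences of 1.13, 10.69 and 0.64. BMP5, a BMP ligand, had 416, 1 and 554 against 643, 1967 and 1018, with -0.51, -9.42 and -0.72. The missing transcript was on the lateral side of embryo 2 for SEMA3C and on the node side for BMP5, while embryos 1 and 3 held 416 to 1018 counts in both tissues. CDH11, a mesenchymal cadherin, had 1657, 6 and 1079 against 1314, 805 and 363, and RTN1, a reticulon, had 241, 1 and 1042 against 53, 1488 and 1410.

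CORO2A, an actin-binding coronin, showed opposite absences in 2 embryos, with 1002, 0 and 222 node counts against 4771, 521 and 0. Its differences were -2.13, -8.17 and 7.16. SLC41A3 and PIK3CB were positive in embryo 2 alone, at 7.72 and 7.37, and negative in embryos 1 and 3. FAM26E had 9.39 in embryo 2 beside 1.24 and -0.58.

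In embryo 3 the same form was seen. TRAF3IP2, an adaptor of interleukin-17 signalling, had 732, 740 and 985 node counts against 1594, 1047 and 0. SHMT1, which links serine to the folate cycle, had 1351, 741 and 586 against 2960, 288 and 0. The lateral library of embryo 3 lacked both transcripts although the other 2 lateral libraries held 288 to 2960 counts. SOSTDC1, a secreted antagonist of BMP and Wnt, had 135, 383 and 0 node counts against 106, 1581 and 2212, and its differences were 0.46, -1.94 and -10.31. TANK and ADNP had 2 and 1 counts in the node library of embryo 3 against 2162 and 1378 in its lateral partner, with differences of -9.09 and -8.91. CHDH and CALCOCO2 were carried toward the node at 9.19 and 7.43, and TP53I3 toward the lateral side at -7.11.

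**Figure D3:**
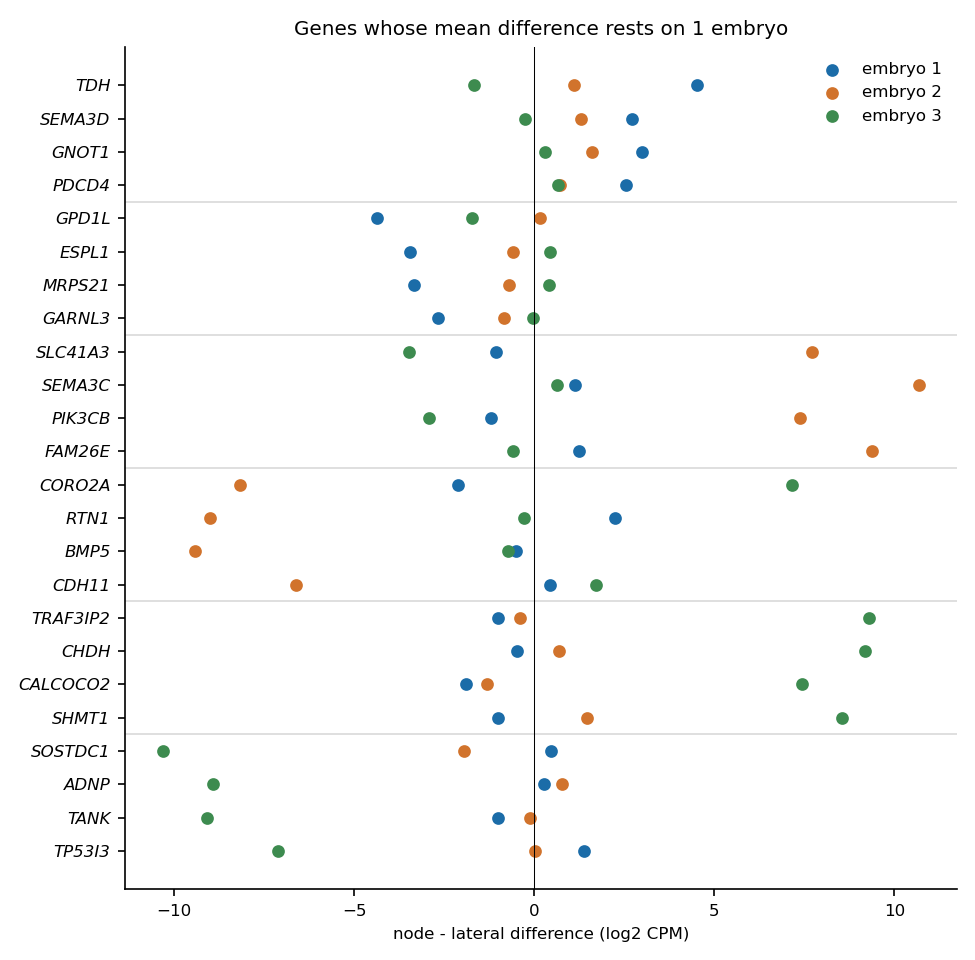
Node minus lateral difference (log2 CPM) in each embryo for the 24 genes chosen as carried by embryo 1 (top 8), embryo 2 (middle 8) and embryo 3 (bottom 8), node side before lateral side within each block. The embryo that carries a gene lies 2.54 to 10.69 from 0, and the other points mostly lie near 0 or on the opposite side.

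The spread of differences was narrower in embryo 1. The SD over all tested genes was 1.75 in embryo 1, 2.77 in embryo 2 and 2.83 in embryo 3, and 37%, 49.2% and 48.1% of genes differed by at least 1 in size. At an average log2 CPM of 5 or more the SDs were 0.76, 1.51 and 1.51. Genes with at least 100 node counts and 0 lateral counts numbered 4, 290 and 325 in embryos 1 to 3, and the converse numbered 60, 235 and 279. Embryo 1 also had the deepest libraries, a different stage and W-linked counts, and the part of each was not tested.

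From a log2 CPM of 1 upward, differences shrank with the level of the gene. Below 1 the median size of the difference was 1.65, 1.13 and 0.65 in embryos 1 to 3, largest in embryo 1. Between a log2 CPM of 1 and 3 the median size of the difference was 1.08, 2.09 and 2.04 in embryos 1 to 3. At 7 or more it was 0.27, 0.39 and 0.33, and 7 of those 1126 genes were higher and 2 lower by 1 in all embryos. The correlation of differences across genes was 0.0542 between embryos 1 and 2, 0.0267 between 1 and 3 and 0.0521 between 2 and 3 (Pearson's r over 10034 genes, which are not independent). Over the 3048 better counted genes these were 0.174, 0.056 and 0.17. By rank (Spearman) the values were 0.0462, 0.00972 and 0.0405 over all genes. Over the better counted genes they were 0.0254, -0.0117 and 0.0976, so both pairs with embryo 1 were lower by rank there. The differences of separate embryos share no library, and the labels do not say which libraries were prepared together.

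**Figure D4:**
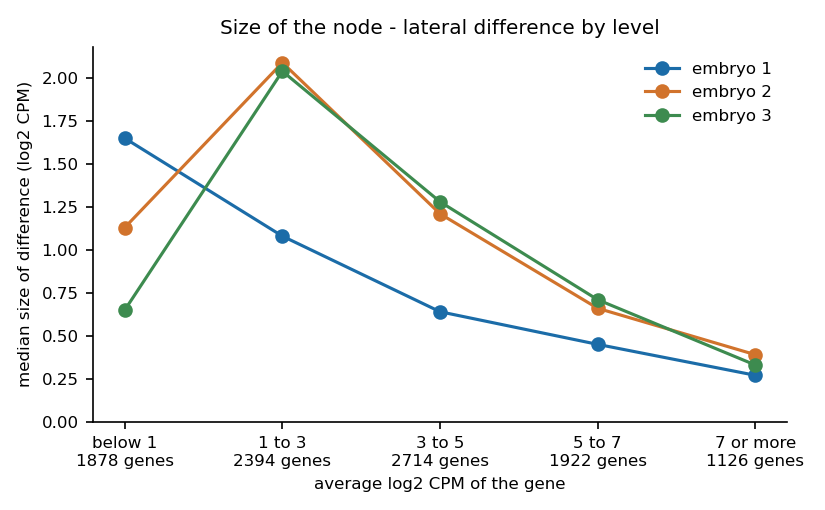
Median size of the node minus lateral difference (log2 CPM) in embryos 1 to 3 for tested genes grouped by their average log2 CPM, with the number of genes under each group. From a level of 1 upward the line of embryo 1 lies below those of embryos 2 and 3, and all 3 lines come down to 0.27 to 0.39 at the highest level.

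Leaving out embryo 1 changed the count of calls. On embryos 2 and 3 alone edgeR called 11 genes (0.11%), 9 higher and 2 lower in the node, whereas leaving out embryo 2 or embryo 3 gave 0. The higher genes were PIK3C2G, CFC1, GUCA2A, MYO3A, LAPTM4B, FIGF, MCF2L, CA10 and GLRX. MCF2L, a guanine nucleotide exchange factor, had 1133, 5653 and 1122 node counts against 156, 225 and 13. GLRX, a glutaredoxin, had 241, 3763 and 635 against 52, 39 and 20. FIGF, the lymphatic growth factor VEGF-D, had 473, 2482 and 1279 against 80, 0 and 0. In embryo 1 these 3 genes were also on the node side, with differences of 2.96, 2.27 and 2.64.

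GUCA2A, the gut peptide guanylin, was called with counts of 17140 against 218 in embryo 2 and only 1 against 0 in embryo 3, so that call rested on embryo 2. The lower genes did the opposite in embryo 1. ASTL, an astacin-like protease, had 110, 0 and 0 node counts against 7, 4500 and 1650, with differences of 3.65, -11.28 and -9.89. C5ORF13 had 728, 815 and 997 against 384, 9295 and 6188, with 1.04, -3.41 and -2.48. All 11 genes were chosen after their values were seen.

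Gene lists were described by their counts and medians, beside those of all genes, whose median of mean differences was -0.02. No member of any list passed the adjusted p. Organiser and notochord genes stood highest, with a median of 2.89 over 11 tested members and medians of 3.00, 4.32 and 1.26 in embryos 1 to 3. TBXT, CHRD, SHH, LEFTY2, CFC1 and SEMA3E were higher by at least 1 in every embryo, and 0 were lower. Of these members, CHRD, SHH, LEFTY2 and SEMA3E had a lateral mean under 10 and passed the filter through the node alone, as did the members NOG and FST. They were thus bound to differ to some degree, and they enter the median of the list. This list was written with these node genes known from earlier results of the same libraries, so its direction is no independent evidence.

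Their leading embryos differed. TBXT, the T-box factor of notochord and streak, had differences of 2.37, 5.03 and 1.26, and a fitted value of 2.81 ± 0.71. CFC1, a co-receptor for Nodal, had 2629, 4620 and 1283 node counts against 293, 0 and 0, and a fitted value of 9.25 ± 2.46. SEMA3E, a semaphorin, had 872, 338 and 2 against 26, 0 and 0, so its difference in embryo 3, 1.19, rested on 2 reads. LEFTY2, a Nodal inhibitor, had 6, 40 and 77 against 1, 0 and 0. For CHRD, which encodes the BMP antagonist chordin, the differences of 4.01, 4.59 and 3.49 were the most even. SHH, the Hedgehog ligand, had 3.78, 2.36 and 4.66 on at most 57 counts.

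Not all members followed. FST, the activin antagonist follistatin, had 166 and 9 counts in embryo 1 and 0 in the other 4 libraries, so embryo 1 carried it. NOG, which encodes the BMP antagonist noggin, was carried by embryo 2, with 1.25, 4.32 and 0.00. COL2A1 and SOX9, genes of notochord sheath and cartilage, differed in sign between embryos, at 0.72, -3.13 and 2.66 and at 0.14, 1.75 and -1.82.

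Among signalling lists, the Hedgehog list had a median of -0.22 over 12 members, -1.07 without embryo 1 and 0.21 without embryo 2. GLI2, an effector of the pathway, had 8678, 880 and 869 node counts against 6121, 20 and 318, with differences of 0.62, 5.44 and 1.60. PTCH1, the receptor that is also a target gene, had 462, 579 and 578 against 25, 310 and 129, with 4.19, 1.00 and 2.30. SUFU, the inhibitor, had 273, 142 and 42 against 702, 390 and 311, with -1.24, -1.35 and -2.69. The fitted values were 6.14 ± 3.13 for SHH, 2.51 ± 1.15 for PTCH1, 2.34 ± 0.96 for GLI2 and -1.77 ± 1.12 for SUFU. These were the 4 members with the smallest p, and SHH, with 2, 0 and 0 lateral counts, passed the filter through the node alone. The other 8 differed in sign between embryos or were at 0 in 1, such as GLI3 at 0.23, -0.69 and -2.24 and BOC, a co-receptor, at 2.41, 3.54 and -6.52.

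The BMP, Nodal and TGF-beta list had a median of 0.31 over 32 members, with CFC1, LEFTY2 and CHRD higher in all embryos. LEFTY2 and CHRD passed the filter through the node alone. ACVR2B, a receptor for activin and Nodal, had 20600, 4354 and 4693 node counts against 13976, 2468 and 2343. Its differences of 0.68, 0.92 and 1.16 were small and alike, as were those of SMAD5, an effector of BMP receptors, at 0.72, 0.72 and 1.06. For Wnt genes the median was 0.56 over 34 members, and 0.27 without embryo 3. WNT8C, a ligand, had 262, 852 and 537 against 117, 67 and 62, and WIF1 was the other member higher in all embryos. ZNRF3, which removes Wnt receptors from the cell surface, was lower in all. CTNNB1, the beta-catenin effector, had differences of 0.27, 0.67 and 0.80.

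FGF genes had a median of -0.06 over 25 members, which was 0.63, 0.22 and -0.25 with embryo 1, 2 or 3 left out, with FGF13 higher in all embryos on 224, 239 and 157 node counts against 43, 1 and 0. FGF8 and FGF3, ligands of the caudal axis, had differences of 0.65, 0.55 and 1.52 and of 2.03, 2.08 and -0.82. Notch genes had a median of 0.15 over 18 members, and of 0.00, 0.55 and 0.75 with embryo 1, 2 or 3 left out, and HES6, a basic helix-loop-helix factor, was higher in all with 1.90, 6.01 and 3.53. Retinoic acid genes had a median of 1.71 over 13 members, and no member differed by 1 or more in all 3 embryos. Of all genes 2.23% were higher and 1.53% lower by this measure, so 0 of 13 does not set the list apart. Embryo 1 had 8 of the 13 on the lateral side, beside 5290 of all 10034 genes. Embryos 2 and 3 each had 10 on the node side, beside 4630 and 4542 of all genes. RXRG, a retinoid receptor, had 1024, 38 and 131 node counts against 2980, 0 and 0, and RDH10, which makes retinaldehyde, had 259, 261 and 117 against 515, 33 and 0. The retinoic acid median was 2.49, 0.74 and 0.97 with embryo 1, 2 or 3 left out.

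Among tissue lists, axial progenitor genes had a median of 0.49 over 21 members, with TBXT and WNT8C higher in all embryos. The neural plate list had -0.55 over 11 members, and -0.32, 0.31 and 0.07 with embryo 1, 2 or 3 left out. CDH2, the neural cadherin, had 0.87, 2.05 and 0.71. FABP7 went the other way in embryos 2 and 3, at 0.02, -2.49 and -0.91.

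Surface ectoderm genes had a median of -0.36 over 13 members, and -0.72 without embryo 2. CLDN1, a tight junction claudin, had 4346, 2766 and 6088 node counts against 10539, 23850 and 12266, with differences of -1.16, -3.01 and -0.85 and a fitted value of -1.65 ± 0.44. All 3 embryos had it lower in the node, led by embryo 2. GRHL3 was lower in all embryos, while its relative GRHL2, another grainyhead factor, was higher in all with 98, 135 and 64 counts against 22, 2 and 0. The 2 relatives thus pointed in opposite directions. GRHL2 had a lateral mean under 10 and passed the filter through the node alone, so it was bound to differ to some degree.

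Endoderm genes had a median of 0.09 over 12 members, with -1.04, 0.51 and 0.41 in embryos 1 to 3, and 1.25, 0.00 and -0.22 with embryo 1, 2 or 3 left out. TF, which encodes the iron carrier transferrin, had 44126, 8011 and 3152 node counts against 16405, 897 and 986, with differences of 1.55, 3.26 and 1.83 and a fitted value of 2.20 ± 0.37. Its node side was higher in every embryo. In contrast, RBP4, the retinol carrier, had 30207, 3288 and 1041 against 67711, 2758 and 232, with -1.05, 0.35 and 2.31. TTR and RBP4 were on the lateral side in embryo 1 and the node side in embryos 2 and 3, so the plasma carriers did not share a direction, and the part of endoderm in the samples was not tested.

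Presomitic mesoderm genes had a median of 0.20 over 10 members (0.53 to 0.56 with 1 embryo left out), and SNAI2, a factor of epithelial-mesenchymal transition, had 1.03, 1.97 and 0.03. The 3 tested somite genes had a median of 1.50, which was 0.00 without embryo 1 and 2.25 without embryo 2 or 3. They were TBX18, PAX3 at 0.22, -0.88 and -2.39, and GGMOXR1, which was counted in embryo 1 alone. Lateral and intermediate mesoderm genes had 0.37 over 7 members (0.00 without embryo 2, -0.47 without embryo 3), and blood and endothelium genes 0.49 over 7 (1.09 without embryo 1, -0.02 without embryo 2). Neural crest genes had -0.03 over 10 members, and -0.45 without embryo 3. The crest factor MSX2 was lower in all embryos at -1.25, -1.68 and -2.83. In the heart list, at -0.23 over 9 members (-0.45, -0.03 and -0.99 with embryo 1, 2 or 3 left out), MYL4, an atrial myosin light chain, had 5755, 3696 and 3351 node counts against 2273, 1917 and 704. Its differences were 1.46, 1.05 and 2.40, and its fitted value of 1.63 ± 0.38 was not matched by ACTN2, which had at most 1 node count.

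Junction and epithelial-mesenchymal genes had a median of 0.37 over 23 members. CTNND2, a delta-catenin of cell junctions, had 4728, 2185 and 535 node counts against 1617, 694 and 263, with 1.66, 1.75 and 1.18 and a fitted value of 1.53 ± 0.43. Extracellular matrix genes had 0.40 over 31 members, and -0.07 without embryo 2. OSF-2, the matrix protein periostin, had 4648, 8239 and 805 against 331, 0 and 229, led by embryo 2 at 12.25 beside 3.92 and 1.96. FBLN2, a fibulin, was also led by embryo 2, at 3.83. Axon guidance genes had 0.67 over 33 members and 0.00 without embryo 2, with SEMA3E higher and EPHA7 lower in all embryos. SEMA3E passed the filter through the node libraries alone and EPHA7 through the lateral libraries alone. Cilia genes had 0.06 over 41 members (0.02 to 0.34 with 1 embryo left out), with CAPSL and BBS12 higher in all. BBS12 had 2 node counts against 0 in embryo 3, so its difference there, 1.19, rested on 2 reads.

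Housekeeping lists gave small differences that followed embryo 2. Cytosolic ribosomal protein genes had a median of -0.16 over 62 members, with 0.05, -0.47 and -0.06 in embryos 1 to 3, and 57 of the 62 were on the lateral side in embryo 2. Of all 10034 genes, 4557 were on the lateral side and 4630 on the node side in that embryo. Nuclear oxidative phosphorylation genes had -0.12 over 64 members, with 47 on the lateral side in embryo 2. Transcripts of the mitochondrial genome went the other way, with 0.48 over 21 members (0.14 without embryo 2), 1.00 in embryo 2 and 19 of 21 on the node side there. Mitochondrial transcripts made up 5.15% of counts in the node library of embryo 2 and 1.36% in its lateral library, against 1.79% to 2.58% in the other 4. The part of this share in the other differences of embryo 2 was not tested, and leaving mitochondrial transcripts out of the library sizes gave 227 higher and 153 lower genes.

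Glycolysis genes had a median of -0.11 over 25 members. LDHA, lactate dehydrogenase, had 5645, 7289 and 1441 node counts against 8257, 33296 and 2616, with -0.43, -2.09 and -0.70, and ENO1, an enolase, had -0.24, -0.67 and -0.38. Both were lower in the node of every embryo by amounts mostly under 1. PDK1, pyruvate dehydrogenase kinase, went the other way at 0.76, 5.80 and 6.23, with 84, 2 and 4 lateral counts. Of the 25 members, 4 were positive and 6 negative in all 3 embryos, beside 11% and 11.4% of all genes. DNA replication genes had -0.19 over 38 members and mitosis genes 0.04 over 36. PCNA, the replication clamp, had -1.20, -0.61 and -0.19, while POLA1, a DNA polymerase subunit, had 0.11, 1.71 and 0.69. HOX genes had 0.40 over 15 members (-0.04 to 0.69 with 1 embryo left out), with 1.02, -0.79 and -0.04 by embryo. None reached 1 in size in all 3, beside 2.23% of all genes higher and 1.53% lower.

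Immediate early and stress genes had a median of -0.07 over 25 members. In all embryos 0 were higher and 2 lower by 1 or more, beside 2.23% and 1.53% of all genes. KLF6, an early-response zinc finger factor, had 1844, 225 and 727 node counts against 4348, 787 and 2086, with -1.12, -1.70 and -1.36 and a fitted value of -1.40 ± 0.43. ENSGALG00000028005, a gene that the table calls GADD45, was the other. The heat shock gene HSPA8 had 0.28, 0.34 and 0.41, so the list as a whole did not mark 1 tissue.

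**Figure D5:**
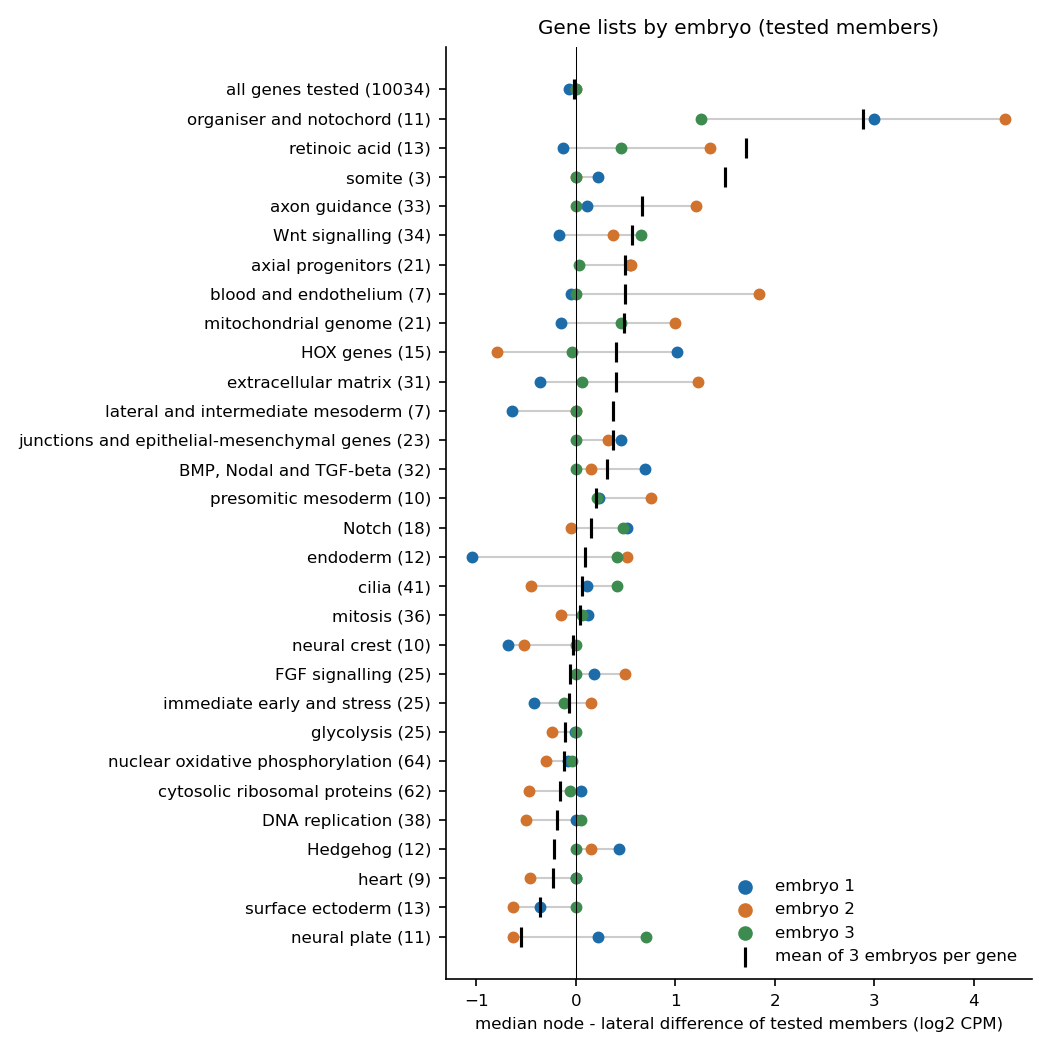
Median node minus lateral difference (log2 CPM) of the tested members of each of the 29 gene lists in embryos 1 to 3 (coloured points, joined by a grey line) and the median of the members' means over the 3 embryos (black bar), with all 10034 tested genes in the top row; the number of tested members is in brackets. The organiser and notochord list lies furthest to the right, from 1.26 to 4.32, and most other lists spread to both sides of 0 or lie within 1 of it.

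As a look-up, the same genes were followed in the 3 LCM embryos, which share no embryo with the hand-dissected ones. LCM values could be taken for 8462 of the 10034 genes, of which 13.2% were positive and 9.1% negative in all 3 LCM embryos. Of the 186 node-side genes with values, 47 (25.3%) were positive in all 3 LCM embryos and 11 (5.91%) were negative. Of the 127 lateral-side genes with values, 10 (7.87%) were negative and 6 (4.72%) positive. The node-side share was above the background of all genes and the lateral-side share was below it. Of the 15 leading node-side genes, 14 had LCM values, and 4 were positive and 0 negative in all 3 LCM embryos. Of the 15 leading lateral-side genes, 12 had values, with 3 negative and 0 positive in all 3. In LCM embryo 1 only 5 of the 14 were positive, with PTGDS at -7.39. There 5 of the 12 lateral-side genes were positive, with ZBTB24 at 8.22. Among the genes named above, KCNJ15, HEP21 and CFC1 were higher by at least 1 in all LCM embryos, and ELMO1 and MSX2 were lower. By this measure 304 of all 8462 genes were higher and 222 lower. Of the 186 node-side genes 19 were higher and 6 lower. Of the 127 lateral-side genes 2 were higher and 6 lower. KCNJ15 had 1550, 3 and 3 LCM node counts against 0 in all LCM lateral libraries, so it rested on LCM embryo 1. HEP21 had 654, 13 and 330 against 1, 0 and 0. CFC1 had 873, 17 and 228 against 4, 0 and 0.

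The node library of LCM embryo 2 held counts for genes that were otherwise counted only in hand-dissected embryo 1. Of 104 genes with at least 100 counts in the hand-dissected lateral library of embryo 1 and none outside its embryo and that LCM library, 100 were counted in it, at 6.22% of their level. HEP21 and CFC1 had 158 and 293 counts in that lateral library, so their 13 and 17 node counts in LCM embryo 2 cannot be told apart from such counts. The source of these counts was not tested. Without LCM embryo 2, 62 of the 186 node-side genes (33.3%) were positive in both other LCM embryos, against 21.3% of all genes. The lateral-side share was then 28 of 127 (22%), against 22.6% of all genes.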

How the data were processed

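The authors deposited raw read counts per Ensembl gene, with 1 column per library, and a normalized signal table in which the counts of a library are divided by a single factor, as tested on the values. Per the labels' protocols, miRNeasy columns gave the RNA, which the SMARTer low RNA kit amplified into libraries. Bowtie2 2.2.3 is named in the submitters' processing notes. No source used here gives the read counter, annotation, build or strand setting. Near-identical, overlapping and antisense genes may therefore share reads, and no coordinates are printed. The authors named 11420 genes, and 597 more were named by gene ID through a RefSeq table. FOXA2 was not analysed here.

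The test on counts of the 6 libraries was edgeR's quasi-likelihood test (edgeR 4.0.16 in R 4.3.3) with TMM scaling and embryo as a block. Benjamini-Hochberg adjustment ran over all 10034 genes with a mean count of at least 10. The script was tested on data simulated without an embryo effect. The share of true differences that the test can find at the spread of these libraries is not reported here. Groups and embryos come from the labels, and replicates are separate embryos. The labels give the pairing, and once group means were subtracted the node and lateral libraries of embryos 1 to 3 correlated at 0.458, 0.118 and 0.212, above every value between different embryos (at most 0.0865). Embryo 1 stood apart in depth, stage and W-linked counts, so its value does not bear on the pairing of embryos 2 and 3. For embryo 2 the margin was small. Before subtraction its lateral library correlated at 0.752 with its own node library and at 0.758 with that of embryo 3. DESeq2 1.42.0 and limma 3.58.1 (voom, and log2 of the deposited normalized values plus 1) were alternatives, beside other filters, scalings and embryos left out.

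Named genes were the 15 per direction with the largest smallest difference (average log2 CPM of 3 or more), the 4 per embryo and direction that it carries (5 or more), up to 4 members per list by p, and the markers. Other list members named, and genes called without embryo 1, were chosen after their values were seen. The comparison, the 29 gene lists and the members were chosen with earlier results of these data known. The LCM look-up was added after seeing the data. Counting floors cover counting error only. The values of 1 gene of these lists are not reported here.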

Additional observations from a re-analysis of the deposited data

How the results depend on the processing

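The count of genes called was 0 under other scaling, filters, limma and the fit of all 12 libraries. DESeq2 called 197, and leaving out 1 embryo gave 0 to 11. Fitted without the replicate block, so without the pairing by embryo, the test called 0 genes, with 182 at an unadjusted p under 0.05. That last count was 262 in the paired fit, 909 in DESeq2, 437 in limma voom, 99 with all 12 libraries in 1 fit and 405 in limma on the normalized values. Genes higher in all 3 embryos numbered 464 at a difference of 0.5 and 85 at 2, and lower genes 389 and 43. With 1 embryo left out, and so a condition on only 2, they numbered 522 to 873 and 518 to 633. Genes carried by a single embryo fell from 2665 to 1230 at a difference of 2 and to 1428 with at least 20 counts in the higher library of every embryo. The cause of the differences between tools was not tested. Of 23 genes whose fitted fold change is printed, all kept their sign under every alternative that tested them, 15 passed in DESeq2 and 4 without embryo 1. Each of the 23 already had the same sign in all 3 embryos. Alternatives on the same libraries could therefore hardly reverse it, and the kept sign is no evidence of robustness. At this depth a count of 0 still allows a level of 3 counts in a library, on counting error alone.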
